A study of Taeniopygia guttata with 8 samples.

Results

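The comparison of singing with silent zebra finches in RA, the robust nucleus of the arcopallium, covers all 35958 genomic regions of the deposited count table in 7 libraries, the 4 singing and 3 silent libraries of that nucleus, out of 14 libraries in the table. The measurement was chromatin immunoprecipitation and sequencing of H3K27ac, histone H3 acetylated at lysine 27. The birds were adult males kept in sound-attenuating chambers. Singing birds had sung for 1 to 2 hours after lights came on (the sample itself is labelled 2 hours), and silent birds had stayed quiet over that period. Both groups had the same housing, and the labels give no strain, genotype or drug. Each behaviour had 18 birds, and dissected nuclei were pooled from 6 birds at a time into 3 pools. The table nevertheless has 4 singing libraries, and nothing in the labels says where the fourth came from. The source label speaks of laser capture, while the protocol describes nuclei cut from thick sections with scissors and forceps. Singing was read from the word plus and silent from the word minus in the column names, so the direction of every difference rests on that reading. The column names do not say H3K27ac either. They were taken as its libraries because each group has 3 or 4 numbered columns, near the 3 pools. The whole-cell extract samples carry the same 3 pools, so the number of columns cannot settle this.

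H3K27ac sits on active promoters and enhancers, where acetyltransferases such as CBP and p300 place it and histone deacetylases remove it. It is used as a map of the regulatory elements a cell has in use, and wide stretches of it usually mark strongly expressed, cell-type-specific genes. RA is a motor nucleus of the song system. Its projection neurons receive input from HVC and from LMAN and drive the brainstem neurons of the vocal organ and of breathing. Singing is known to induce activity-dependent genes in song nuclei, and the comparison asks whether acetylation differs after singing. Neither the labels nor the table name the genome build, and no gene was assigned to a region, so regions are named by position, and the labelled tissue was not checked against marker genes.

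Depth and likeness differed widely among the 7 libraries. The total of reads in regions (in M, 1e6 reads) was 4.88 M, 1.08 M, 3.03 M and 0.203 M in singing libraries 1 to 4, and 5.41 M, 4.33 M and 9.48 M in silent libraries 1 to 3. In singing library 4, 17.0% of regions had no read, the median region had 3 reads, and 1 read was worth 4.59 CPM (counts per 1e6 reads after TMM scaling). Silent library 2 resembled the libraries of Area X, the striatal song nucleus, more than those of RA, with median Spearman coefficients across regions of 0.904 to Area X and 0.809 to the other RA libraries. For singing library 4 these medians were 0.791 and 0.691. By median, libraries of opposite behaviour were as alike as libraries of the same behaviour: the 12 singing-silent pairs had a median of 0.807, against 0.749 in the 6 singing pairs and 0.800 in the 3 silent pairs. The shallow singing library 4 weighs on the singing median. Singing pairs with it had 0.666, 0.721 and 0.712, and those without it 0.777, 0.788 and 0.786. Its pairs with silent libraries 1 to 3 had 0.654, 0.823 and 0.670. The most alike pair in RA was singing library 1 with silent library 1, at 0.963. By the chi-square of their counts per degree of freedom, the closest of all 21 pairs was singing library 4 with silent library 2, at 1.32, which is still above sampling noise. Few reads lower this measure: it ran from 1.32 to 5.06 in the pairs with singing library 4 and from 3.13 to 28.6 in the others.

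No region differed between singing and silent RA past the threshold. Of 35149 tested regions, 0 (0%) had an adjusted p under 0.05 in the edgeR quasi-likelihood test of the 7 libraries, and the smallest adjusted p was 1.00. The DESeq2 test and limma voom with quality weights also called 0. In pooled tissue, a different mix of cells and a different acetylation per cell cannot be told apart. The fitted value was higher in singing in 46.1% of regions and the median log2 fold change was -0.04. The spread was wide, with a common biological coefficient of variation of 0.448, and the 95% interval of a region's log2 fold change reached a median of 1.09 to either side. It reached 0.76 in the strongest of 5 equal classes of mean signal and 1.65 in the weakest. Changes of about 2-fold thus lay within the interval of a typical region and could not be detected there. These intervals are not adjusted for the number of regions, and the adjusted threshold is stricter in every class. Even the largest fitted fold of all tested regions, 13.3 at chr4:48331418-48331903, was not called.

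Regions with an unadjusted p under 0.05, said here to lean, numbered 116 higher in singing (0.33% of tested regions) and 82 lower (0.233%). Together these 198 are a far smaller share than the 0.05 that a calibrated test gives where no region differs. In this fit the leans are thus not an excess. So small a share may mean that the test is conservative on these libraries, and it does not show that no region differs. In limma voom with quality weights, 2176 of the same 35149 regions leaned higher and 992 lower, with 0 called. Without silent library 2, 5.53% of the regions tested in edgeR leaned higher and 0.557% lower. All 4 singing libraries lay above all 3 silent libraries in 180 regions (0.512%), and below them in 506 (1.44%). The lean and the separation of libraries picked different regions in large part, since 20 of the 116 leaning higher and 41 of the 82 leaning lower were also separated. The leans are described below as values, with no claim that any single region changed.

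Among regions with at least median signal, the smallest p toward singing fell at chr12:16897784-16899750, a region of 1967 bp. Its signal was 13.6, 50.4, 36.5 and 68.9 CPM in singing libraries 1 to 4 and 11.4, 18.2 and 4.49 CPM in silent libraries 1 to 3. Singing libraries 2, 3 and 4 stood above every silent library, while singing library 1 lay between silent libraries 1 and 2. The means were 42.4 ± 23.3 CPM in singing (SD, n = 4) and 11.4 ± 6.88 CPM in silent libraries (SD, n = 3), a 3.49-fold difference. On the log2 scale this was 1.80, with a 95% interval of 0.71 to 2.90 (edgeR adjusted p = 1.00).

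At chr18:9677427-9679048, 1622 bp wide, signal was 9.30, 61.4, 17.6 and 36.7 CPM in singing libraries 1 to 4 and 6.55, 14.4 and 5.45 CPM in silent libraries 1 to 3. Again only singing library 1 overlapped with the silent range, through silent library 2. The log2 fold change was 1.77 (SE 0.58, edgeR adjusted p = 1.00), and it was 2.29 without silent library 2 and 1.70 without singing library 4.

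A pair of named regions lay close together on chromosome 14, and neighbours of this kind are not independent observations. At chr14:3239816-3241064, signal was 12.0, 33.0, 31.4 and 36.7 CPM in singing libraries 1 to 4 and 9.83, 15.6 and 5.34 CPM in silent libraries 1 to 3. At the wider chr14:3226600-3229565, of 2966 bp, it was 24.6, 51.3, 61.2 and 110 CPM in singing libraries and 22.5, 39.9 and 16.0 CPM in silent libraries. The order of libraries was the same at both in that singing library 4 was highest, singing library 1 was lowest among the singing libraries, and silent library 2 was highest among the silent ones. The folds were 2.65 and 2.20.

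Below median signal, the difference at chr4:48331418-48331903 had the smallest p of all tested regions. Its 486 bp held 3.31, 11.0, 13.8 and 13.8 CPM in singing libraries 1 to 4 and 0.385, 1.46 and 0.428 CPM in silent libraries 1 to 3. The groups did not overlap, although the value of singing library 4 rested on 3 reads. The means were 10.5 ± 4.95 CPM in singing (SD, n = 4) and 0.758 ± 0.61 CPM in the silent ones (SD, n = 3), giving a fitted fold of 13.3 and a log2 interval of 1.87 to 5.60 (edgeR adjusted p = 1.00). Over every alternative fit its log2 fold change stayed between 3.40 and 4.48. The other named region without overlap on this side, chrUn:97777442-97777620 on unplaced sequence, had 9.92, 10.1, 17.9 and 4.59 CPM in singing and 4.24, 1.70 and 2.03 CPM in silent libraries, and singing library 4 had 1 read there.

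The 12 regions named toward singing shared an order of libraries as well as a direction. Silent library 2 was the highest silent library in 10 of 12, and singing library 1 the lowest singing library in 10 of 12. Over all tested regions, silent library 2 was the highest silent library in 32.9%, and the matching share for singing library 1 is not given. The 12 had been picked by p from these same libraries, so their order is a description and not a test. The folds of the 12 ran from 2.20 to 13.3 and their widths from 179 to 3614 bp. Leaving out silent library 2 raised the fitted log2 fold change at 11 of the 12, the exception being chrUn:97777442-97777620, where it was 1.92 without that library against 2.12 with it.

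**Figure D1:**
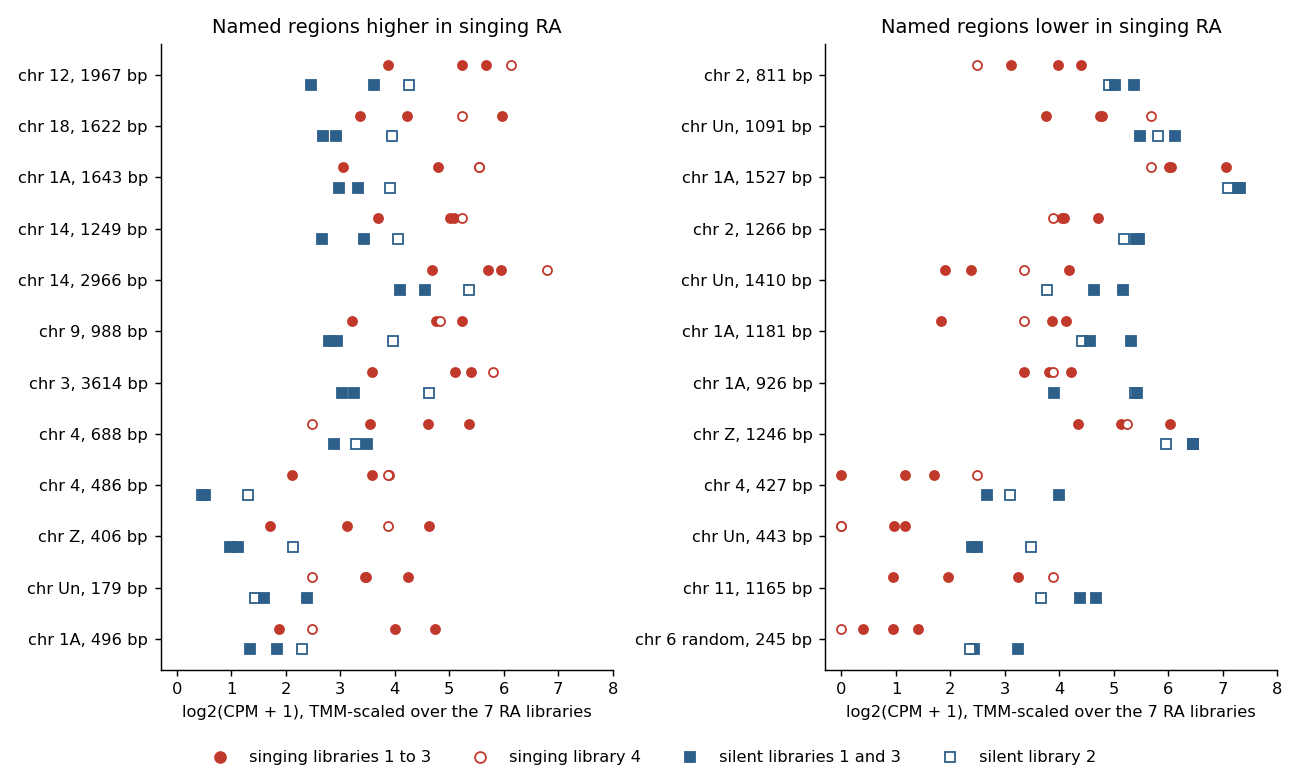
H3K27ac signal in each RA library at the 24 named regions, with log2(CPM + 1) on the horizontal axis and regions, named by chromosome and width, down the page; in each row, red circles are singing and blue squares silent libraries, and open symbols are singing library 4 and silent library 2. On the left side 2 of 12 regions show no overlap between behaviours, and on the right side 7 of 12.

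Among the 12 regions named lower in singing, 7 showed no overlap between the behaviours, and at or above median signal their folds ran from 1.84 to 2.74, against 2.20 to 3.49 for those named higher. At chr2:16029920-16030730, 811 bp wide, signal was 20.1, 14.7, 7.69 and 4.59 CPM in singing libraries 1 to 4 and 40.3, 29.0 and 31.5 CPM in silent libraries 1 to 3. Every singing library lay below every silent library, and singing library 4 had 1 read. The means were 11.8 ± 6.95 CPM in singing (SD, n = 4) and 33.6 ± 5.93 CPM in the silent ones (SD, n = 3), a log2 fold change of -1.36 with an interval of -2.33 to -0.38 (edgeR adjusted p = 1.00).

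The strongest named region was chr1A:49376474-49378000, with 132, 65.1, 63.8 and 50.5 CPM in singing libraries 1 to 4 and 152, 135 and 158 CPM in silent libraries 1 to 3. Singing library 1 came within 3 CPM of silent library 2, and the other singing libraries lay far below. The log2 fold change was -0.88 (SE 0.34), and it was -0.93 without silent library 2 and -0.76 without singing library 4. At chr2:68472369-68473634 signal was 25.2, 15.6, 16.0 and 13.8 CPM in singing libraries and 43.3, 35.5 and 41.4 CPM in silent libraries, again with no overlap. This region had the narrowest range over the alternative fits among those named lower, from -1.37 to -1.04 on the log2 scale.

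Among weak regions, chrUn:154099534-154099976 had 1.24, 0, 0.961 and 0 CPM in singing libraries 1 to 4 and 4.62, 10.2 and 4.28 CPM in silent libraries 1 to 3. The zeros came from the shallowest libraries, where 3 reads equal 2.75 CPM in singing library 2 and 13.8 CPM in singing library 4, so a silent level of 10.2 CPM or less is below what 3 reads in singing library 4 would show. At chr4:25316317-25316743 signal was 1.24, 0, 2.24 and 4.59 CPM in singing libraries and 5.39, 7.54 and 15.0 CPM in silent libraries, and at chr6_random:1222593-1222837 the highest singing value was 1.65 CPM and the lowest silent value 4.14 CPM.

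The 7 of 12 without overlap stand against 1.44% of all tested regions, but the 12 had been picked by p from the same libraries. Singing library 1 was the highest singing library in 7 of the 12, and silent library 2 the lowest silent library in 8. Over all tested regions, silent library 2 was the lowest silent library in 46.7%, and the matching share for singing library 1 is not given. In 9 of the 12 singing library 4 had 3 reads or fewer. On both sides singing library 1 tended to be the singing library nearest to the silent ones and silent library 2 the silent library nearest to the singing ones.

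**Figure D2:**
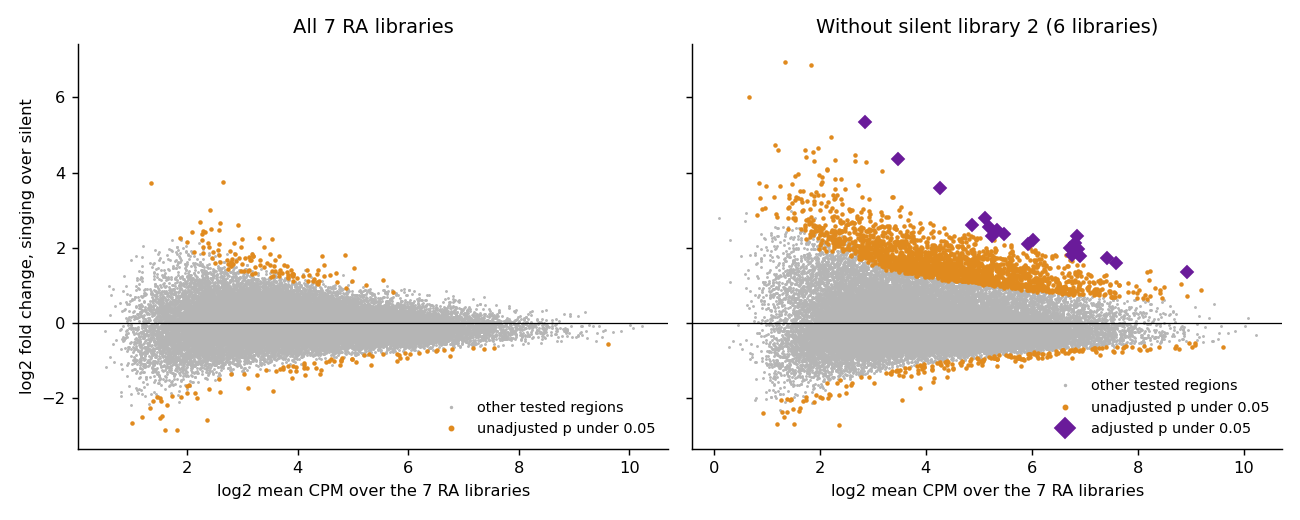
Fitted log2 fold change of singing over silent RA against log2 mean CPM over the 7 RA libraries, 1 point per tested region; orange points have an unadjusted p under 0.05 and purple diamonds an adjusted p under 0.05. With all 7 libraries there are 116 orange points above 0, 82 below and no diamonds, and without silent library 2 the right panel has 1948 regions above 0 with an unadjusted p under 0.05, 196 below, and 20 diamonds, all above 0.

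By width and signal, regions leaning higher were narrow and weak, with a median of 677 bp and 9.90 CPM. Those leaning lower were near the tested regions as a whole in their medians but more spread in signal. Their quartiles were 5.43 and 40.1 CPM, against 7.67 and 33.0 CPM over all tested regions. Their medians were 798 bp and 17.4 CPM, against 782 bp and 15.2 CPM over all tested regions. Of the 1549 regions over 4000 bp, 0 leaned higher and 3 leaned lower. Of the 10269 tested regions up to 500 bp, 44 leaned higher and 26 lower. In the strongest signal class of 7030 regions, 2 leaned higher and 21 lower, and in the weakest class of 7029 the counts were 26 and 23. The second-weakest class of 7030 had 42 and 5. Beside these class counts, 0.33% of all 35149 tested regions leaned higher and 0.233% lower.

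The fitted direction over all regions also moved with signal. In the strongest class 32.4% of regions had the higher fitted value in singing and the median log2 fold change was -0.12, while in the second-weakest class 55.3% did and the median was 0.07. These medians run over whole classes, so the interval of a single region does not measure their uncertainty. The fitted direction by class was not tested.

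Leans by position were spread over the genome, with regions leaning higher on 23 chromosomes or sequence sets and regions leaning lower on 26. Of the 116 leaning higher, 63 (54.3%) lay on the macrochromosomes, here 1, 1A, 1B, 2, 3, 4, 5 and Z, as did 41 of the 82 leaning lower (50%), where 41.9% of tested regions lie. Unplaced or random sequence held 10 of the 116 (8.62%) and 13 of the 82 (15.9%), against 9.43% of tested regions. Chromosome Z, the sex chromosome of which male birds carry a pair, stood low as a whole. Of its 1218 tested regions, 36.0% had the higher fitted value in singing, against 46.1% of all regions. Its median log2 fold change was -0.14, with 5 leans in each direction. It was not alone in this, since the share was 33.0% of 112 tested regions on chromosome 25 and 37.5% of 381 on chromosome 28. Chromosome 4A had the highest such share of the placed chromosomes, with 53.6% of 1002 regions higher, 3 leaning higher and 1 leaning lower. Chromosome 14 had 5 regions leaning higher and 0 lower among 979. Over all 35149 tested regions 0.33% leaned higher and 0.233% lower, so only a few leans per chromosome are at issue.

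Consecutive leaning regions were rare. With gaps of up to 10000 bp allowed, 1 run of 2 regions leaned higher, at chr3:62319661-62323562, and no run leaned lower. Its summed signal was 5.58, 21.1, 28.2 and 45.9 CPM in singing libraries 1 to 4 and 6.55, 12.2 and 2.89 CPM in silent libraries 1 to 3. Singing library 1 lay below silent library 1 there, so the groups overlapped.

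Shares of reads, which need no scaling factor, did not separate the behaviours by width or signal. Regions over 4000 bp took 20.7%, 24.1%, 24.5% and 27.8% of the reads in singing libraries 1 to 4 and 20.4%, 26.7% and 23.6% in silent libraries 1 to 3. The ranges overlapped almost fully, and the 2 highest shares belonged to singing library 4 and silent library 2. The strongest signal class took 59.0% ± 2.30 of the reads in singing (SD, n = 4) and 60.3% ± 1.27 in the silent ones (SD, n = 3; exact two-sided permutation p = 0.514). This difference of -1.25 percentage points was -0.42 without singing library 3, -0.644 without silent library 2, -1.91 without silent library 1 and -2.27 without singing library 4. Over the 7 classes of width, signal and position tested this way, 0.514 was the lowest p, and every adjusted p was 1.

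By chromosome, 1 of 30 shares was separated. Chromosome 14 took 3.77%, 3.87%, 4.04% and 3.82% of the reads in singing libraries 1 to 4 and 3.72%, 3.71% and 3.72% in silent libraries 1 to 3. All 4 singing libraries stood above all 3 silent libraries, including silent library 2 and singing library 4. The exact two-sided permutation p was 0.0571, the smallest that 35 labellings of 7 libraries allow, and the adjusted p over 30 chromosomes was 1. The difference of 0.16 percentage points was 0.105 without singing library 3 and between 0.156 and 0.195 without any other single library. Chromosome Z took 3.65% ± 0.25 in singing (SD, n = 4) and 3.89% ± 0.12 in the silent ones (SD, n = 3; exact two-sided permutation p = 0.171, adjusted p = 1), with singing library 3 lowest at 3.30%. The difference of -0.244 percentage points was -0.127 without singing library 3.

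Among the fits without a single library, calls and leans toward singing were most numerous without silent library 2, and leans toward silent without singing library 1. Without silent library 2, edgeR called 20 of 35219 tested regions (0.0568%), all higher in singing, 1948 regions leaned higher (5.53%) and 196 leaned lower (0.557%), with 2 silent libraries left. Leaving out singing library 1 gave 647 leaning higher and 1019 lower, and leaving out any of the other 5 libraries gave at most 126 and 104, with 0 called in each of these 6 fits. The common biological coefficient of variation was 0.408 without silent library 2. The share of regions with the higher fitted value in singing was 44.3% in that fit.

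**Figure D3:**
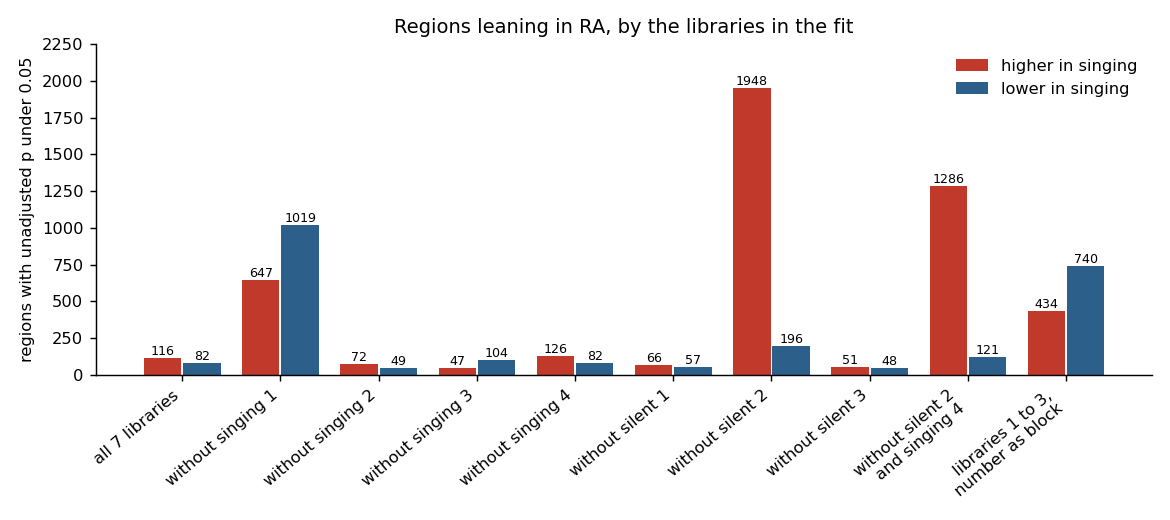
Number of regions with an unadjusted p under 0.05 in RA, higher in singing (red) and lower (blue), for 10 edgeR fits that differ in their RA libraries or in the block, with the count above each bar. The fits without silent library 2 reach 1948 and 1286 regions higher in singing, and the fits without singing library 1 or with library number as a block are the only other ones of these 10 above 400 in either direction.

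Wide regions leaned higher most often in that fit. Without silent library 2, 23.8% of the regions over 4000 bp leaned higher (368 of 1549) and 1.94% leaned lower, against 1.60% and 0.387% of regions up to 500 bp. In the 3 width classes between these, the share leaning higher was 3.25%, 5.97% and 13.8%, from narrow to wide. With signal the share leaning higher went in order as well. It was 3.28% in the weakest class, 4.37%, 6.15% and 6.60% in the next 3, and 7.24% in the strongest. The share leaning lower was also largest in the strongest class, at 1.31%, against 0.416% in the weakest. The fitted direction did not move toward singing with signal. From weakest to strongest class, 49.12%, 51.17%, 46.63%, 39.25% and 35.02% of regions had the higher fitted value in singing. The median log2 fold change was -0.16 in the strongest class. Width and signal go together, with a median of 124 CPM over 4000 bp and 6.13 CPM up to 500 bp, and their parts were not separated. Macrochromosomes had 7.69% of regions leaning higher, other placed chromosomes 4.17% and unplaced or random sequence 2.97%. Runs of consecutive leaning regions numbered 234 higher and 3 lower, and the longest held 5 regions among those higher and 2 among those lower.

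**Figure D4:**
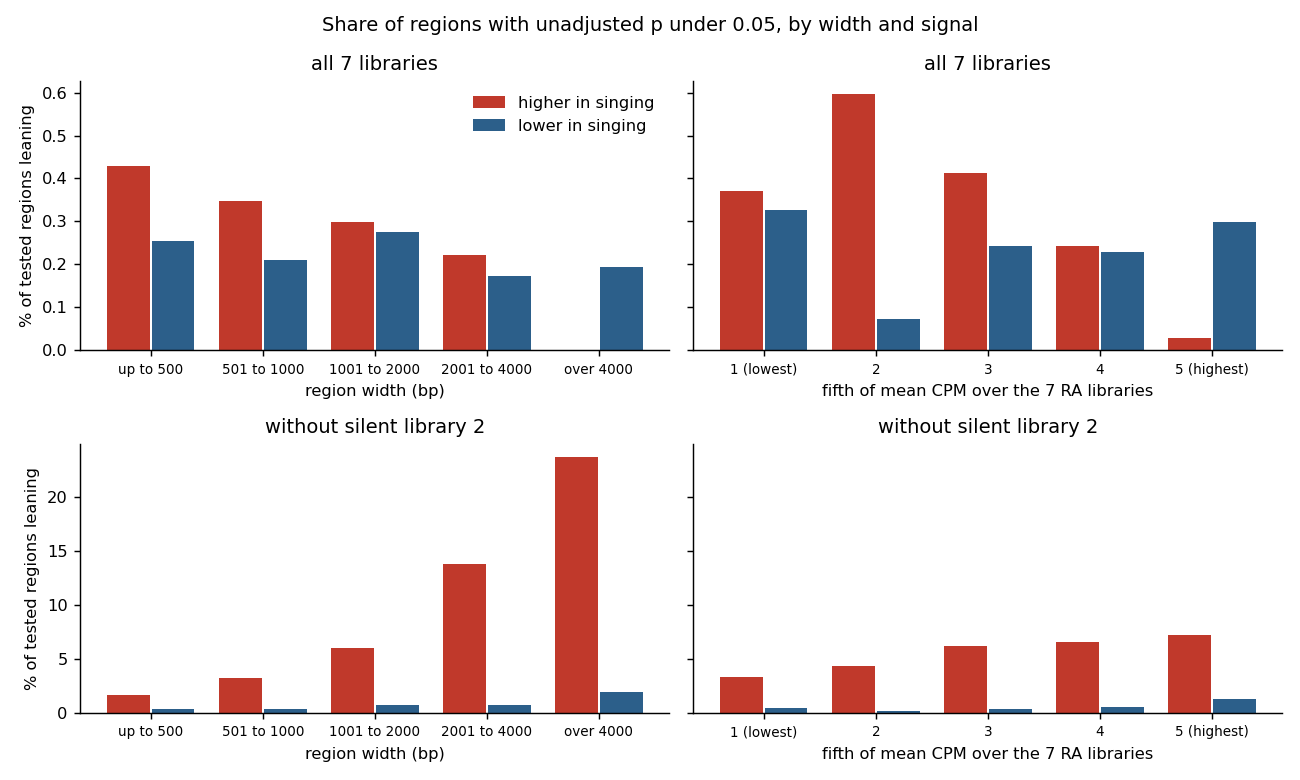
Percent of tested regions with an unadjusted p under 0.05 in RA by region width in bp (left) and by class of mean CPM (right), higher in singing in red and lower in blue, with all 7 libraries (top) and without silent library 2 (bottom); the vertical scales of the rows differ. With 7 libraries no class exceeds 1%, and without silent library 2 the share leaning higher goes up with width to 23.8% over 4000 bp.

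Silent library 2 stood high in most of these regions. It lay above both other silent libraries in 1936 of the 1948 (99.4%), against 32.9% of all tested regions; since its absence from the fit let them lean, this is a description of the set and not a test. On a scale common to the 14 libraries of both nuclei, the median signal over the 1948 regions was 7.76, 25.9, 22.1 and 30.4 CPM in RA singing libraries 1 to 4 and 6.17, 26.5 and 6.83 CPM in RA silent libraries 1 to 3. Singing library 1 sat with silent libraries 1 and 3, and silent library 2 sat with singing libraries 2, 3 and 4. In the Area X libraries the medians of the same regions were 21.3, 35.2, 75.3 and 60.5 CPM in singing libraries 1 to 4 and 28.6, 49.3 and 56.3 CPM in silent libraries 1 to 3, all far above the 3 low RA libraries. Over all tested regions the 14 medians ran from 12.5 to 14.2 CPM, a closeness that the scaling aims at. The 1948 regions were picked with silent libraries 1 and 3 as the lower group, so the low levels of these 2 libraries are part of the choice. Whether tissue from outside RA had a part in these levels was not tested.

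In the 196 regions leaning lower without silent library 2 the order turned round. Their medians on the same scale were 32.9, 19.6, 18.9 and 17.4 CPM in RA singing libraries 1 to 4 and 42.1, 31.4 and 46.6 CPM in RA silent libraries 1 to 3, with 17.5 to 26.0 CPM in Area X libraries. Silent library 2 was the lowest silent library in 170 of the 196 (86.7%), against 46.7% of all tested regions.

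**Figure D5:**
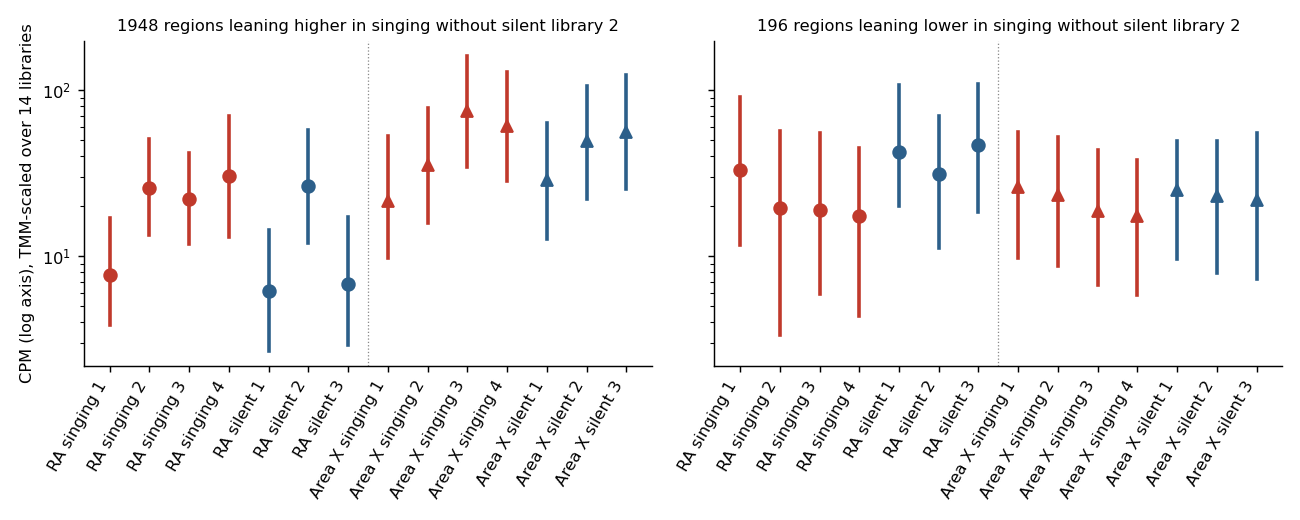
Median (symbol) and quartiles (line) of H3K27ac signal in CPM, on a log axis and a scale common to 14 libraries, over the regions leaning higher (left, 1948 regions) and lower (right, 196 regions) without silent library 2; circles are RA and triangles Area X libraries, red is singing and blue is silent. On the left RA singing library 1 and silent libraries 1 and 3 lie at 6.17 to 7.76 CPM, while RA silent library 2, at 26.5 CPM, lies among RA singing libraries 2 to 4.

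The 20 regions called without silent library 2 showed the same order in detail. They had a median width of 5340 bp, 13 of the 20 were over 4000 bp, and 6 lay on chromosome 3 and 3 on chromosome 14. Of the 35219 regions tested in this fit, 1549 were over 4000 bp, 2692 lay on chromosome 3 and 983 on chromosome 14. At chr2:89580567-89588693, the first of them by p, signal was 28.3, 190, 95.2 and 234 CPM in singing libraries 1 to 4 and 33.9, 206 and 18.4 CPM in silent libraries 1 to 3. Singing library 1 lay below silent library 1, and silent library 2 above singing libraries 1, 2 and 3. The log2 fold change was 2.31 without silent library 2 (edgeR adjusted p = 0.0062) and 0.61 with it (adjusted p = 1.00).

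The widest of the 20, chr12:17578176-17600039, spans 21864 bp. Its signal was 243, 634, 338 and 886 CPM in singing libraries 1 to 4 and 211, 912 and 196 CPM in silent libraries 1 to 3, so silent library 2 exceeded every singing library. The log2 fold change was 1.34 without silent library 2 (edgeR adjusted p = 0.0486) and 0.24 with it. A narrower one, chr3:67834688-67835704 of 1017 bp, had 5.17, 21.1, 18.6 and 13.8 CPM in singing and 0.578, 18.0 and 0.748 CPM in silent libraries, and there all singing libraries stood above silent libraries 1 and 3.

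In all 20, silent library 2 was the highest silent library and singing library 1 the lowest singing library. Singing library 1 still exceeded both silent library 1 and silent library 3 in 14 of the 20. With all 7 libraries their log2 fold changes were all positive, between 0.20 and 1.86, with unadjusted p between 0.112 and 0.802, so none of them leaned. On the 14-library scale, silent library 2 was inside the Area X range in 15 of the 20 singing library 4 in 17, singing library 2 in 12 and singing library 3 in 5, while singing library 1 and silent libraries 1 and 3 lay below that range in all 20.

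Few of the 20 calls held under most other choices. Without silent library 2, also leaving out silent library 1 or 3, or singing library 2, 3 or 4, left 0 calls, and also leaving out singing library 1 gave 860 calls, 807 higher and 53 lower, that included all 20. Total-count scaling called 8, DESeq2 size factors or signal-dependent loess scaling in edgeR 0, the DESeq2 test 7, of which 5 were among the 20, and limma voom with a quality weight for each library 157, of which 154 were higher and 11 were among the 20. In each of these 11 fits all 20 regions kept the higher value in singing. Their unadjusted p is given here only for the fits with 2 silent libraries left, and in these it stayed under 0.05 for all 20. The 20 had been picked by p from these same libraries, so this describes the set and is not a test.

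Leaving out singing library 4 gave similar counts of leans but not all of the same regions. Without it, 126 regions leaned higher and 82 lower, with 0 called, and 63 of the 116 regions leaning higher and 53 of the 82 leaning lower still leaned. Fewer did without singing library 2 (31 and 21), singing library 3 (29 and 28), silent library 1 (34 and 36) or silent library 3 (29 and 33), while 111 and 73 did without singing library 1 and 96 and 49 without silent library 2. It was the highest singing library, ties included, in 44 of the 116 regions leaning higher (37.9%), against 22.2% of all tested regions. It had no read in 20 of the 82 leaning lower (24.4%), against 15.8% of all tested regions, but it was the lowest singing library, ties included, in 33 of the 82, near its 14268 of 35149 overall. A region's 3 reads in this library correspond to 13.8 CPM, near the median region's mean of 14.8 CPM, so its value in a typical region rests on a handful of reads. The direction of wide regions moved with it. Among regions over 4000 bp, 47.3% had the higher fitted value in singing with all 7 libraries and 39.6% without singing library 4, while 59.8% did without silent library 2 and 57.9% without both. With both left out, edgeR called 0 regions, and 1286 leaned higher and 121 lower.

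Counts of leans also moved with the scaling and with the pairing of libraries. Total-count scaling put the median over regions of log2 fold changes at 0.04, against -0.04 with TMM, and the leans at 202 higher and 46 lower, so that 81.5% of leans were higher in place of 58.6%. Treating the library number as a block in libraries 1 to 3 of each behaviour gave 434 higher and 740 lower, against 126 and 82 in the same 6 libraries without the block, with 0 called in either fit. All 24 named regions kept their direction in every alternative in which they were tested. They had been picked by p from the same libraries that the alternatives reuse, so this is a description and not a test.

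Area X values were set beside those of RA for the leaning regions. The mean of the Area X singing libraries was above that of the silent ones in 95 of the 116 regions leaning higher in RA (81.9%) and in 11 of the 82 leaning lower (13.4%), against 54.8% of all tested regions. Part of this is not particular to the leaning regions. The share was 64.2% of all regions with a higher fitted value in singing RA and 46.7% of those with a lower one. The libraries of both nuclei may come from the same birds, so these shares are a description. At chr12:16897784-16899750, on the 14-library scale, RA had 11.6, 45.9, 32.3 and 65.2 CPM in singing libraries 1 to 4 and 9.33, 16.6 and 4.22 CPM in silent libraries 1 to 3. Area X had 33.4, 65.6, 137 and 98.0 CPM in its singing libraries and 28.0, 33.5 and 54.3 CPM in its silent libraries. The number 1 libraries were the lowest singing libraries in both nuclei there. At chr1A:53516675-53517600, named lower in RA, RA had on that scale 11.1, 8.35, 15.6 and 13.0 CPM in singing and 11.4, 37.1 and 39.3 CPM in silent libraries, where silent library 1 alone lay among the singing ones. Area X had 12.7, 11.6, 17.2 and 17.0 CPM in singing and 26.1, 36.8 and 44.1 CPM in silent libraries, with no overlap. The difference of the singing effect between the nuclei, tested with all 14 libraries in edgeR, was called in 0 of 35954 regions, with 211 at an unadjusted p under 0.05. It was also 0 without silent library 2, with 1672.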

How the data were processed

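H3K27ac ChIP-seq counts were analysed in the 4 singing and 3 silent RA libraries, with the 7 Area X libraries used only beside them. The authors deposited read counts for 35958 regions, which were assumed to be raw. The submitters' processing notes list HTSeq 0.6.1, MACS2 2.1, SAMtools 1.1 and bedtools without saying what each did. The aligner, the build and the libraries in which regions were called are not named in the sources used. If regions were called on some libraries more than others, shallow libraries would be measured in regions chosen on deep ones. No input was subtracted, and whole-cell extract samples were left aside. Coordinates are those of the table, with starts counted from 1.

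In R 4.3.3, edgeR 4.0.16 tested the 2 group means (filterByExpr, which removed 809 regions, TMM, robust quasi-likelihood, Benjamini-Hochberg over all tested regions, threshold 0.05). Values of 3 reads are given as floors and cover counting error only. A lean is an unadjusted p under 0.05. The SE is the size of the log2 fold change divided by the square root of F. CPM are TMM-scaled over the 7 RA libraries, or over 14 where Area X is beside them. An exact two-sided permutation of the 7 libraries compared shares of reads. Where no region passes, the 8 smallest p at or above the median mean CPM and the 4 below it are named in each direction. Alternatives used limma 3.58.1 and DESeq2 1.42.0. The edgeR fit was tested on simulated data. Those counts were drawn independently for each library with a single common spread, so they do not cover the likeness between libraries of opposite behaviour. The regions, classes and rules were chosen with earlier results of these data known.

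Each numbered library was treated as a pool of its own, and p-values measure only the spread between them, which may be partly technical. Within a behaviour, the lowest chi-square per degree of freedom between 2 libraries was 2.25, for singing libraries 2 and 4, and over all 21 pairs 1.32, for singing library 4 with silent library 2, so none agreed within sampling noise. Deviations from the group means of libraries with the same number correlated across regions at 0.576, 0.306 and 0.107 for numbers 1 to 3. Each is above 0.1, so the numbers were treated as a possible pairing, and the blocked counts are given beside the main ones. The pairing is not in the labels, and the deviations of singing library 3 correlated more with silent library 2, at 0.161. Those of silent library 3 correlated more with singing library 1, at 0.120. For number 3 the pairing was thus not the closest match on either side. Since these unmatched libraries also passed 0.1, that limit cannot establish a pairing.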

Additional observations from a re-analysis of the deposited data

Results flagged for a closer look

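On chromosome 8, singing library 4 stood apart in its share of reads. It had 2.34%, while singing libraries 1 to 3 had 2.45%, 2.47% and 2.47%, a gap of 0.863 of the range of the 4 libraries, which exceeds the limit of Dixon's test at the 95% level. The silent libraries had 2.47%, 2.39% and 2.50%. Among 81 groups of 4 that were examined it was the 1 past the limit, while about 1 in 20, or 4.05, pass by chance.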

How the results depend on the processing

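The comparison of the 7 libraries gave 0 called regions in edgeR under each scaling, filter, test, block and leave-out listed here except without silent library 2, so calls ran from 0 to 20 over the leave-outs. Regions leaning higher, 116 in the main fit, numbered 202 with total-count scaling, 199 with the DESeq2 test, 2176 with limma voom quality weights, 47 among regions at or above median CPM, 290 with all 14 libraries in the fit, 1286 without silent library 2 and singing library 4, and 47 to 1948 without single libraries. Regions leaning lower, 82 in the main fit, numbered 46, 70, 992, 20, 416 and 121 in those fits and 48 to 1019 without single libraries. DESeq2 size factors, loess scaling and no filter kept both counts within 1.5 times. With library number as a replicate block, 434 leaned higher and 740 lower and 0 were called, against 126, 82 and 0 in the same 6 libraries unblocked.

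The fits that leave out silent library 2, chosen after seeing the data, called 20 regions, and 8 with total counts, 0 with DESeq2 size factors, 0 with loess, 7 with the DESeq2 test, 157 with voom weights and 0 to 860 with a further library left out. Leans there, 1948 higher and 196 lower, ran from 729 to 3523 and from 54 to 1836 over those leave-outs, and leans lower were 112 with total counts, 78 with the DESeq2 test and 1499 with voom weights. The difference of the singing effect was called in 0 regions in each of its fits.

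Differences in shares of reads, singing minus silent in percentage points, changed sign in several settings, none past a threshold. Without both silent library 2 and singing library 4, regions up to 500 bp stood at -0.124 and macrochromosomes at 0.154, against 0.00637 and -0.0359 with all 7. Macrochromosomes without Z stood at 0.208, and the weakest of 10 signal classes at -0.0804, against 0.0217 for the weakest of 5. Without single libraries, regions up to 500 bp ran from -0.531 to 0.413, those over 4000 bp from -0.864 to 2.29, the weakest of 5 from -0.191 to 0.154, macrochromosomes from -0.668 to 0.786 and other placed chromosomes from -0.561 to 0.844. Causes were not tested. The designs allow no exact p under 0.0571, and the shallow singing library 4 limits any region under about 13.8 CPM.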

Other observations

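Without silent library 2, the longest runs of consecutive regions leaning higher in singing held 5 regions each, and 5 runs had that length. The run with the most signal, chr15:2941756-2976101, had a summed signal of 193, 348, 341 and 432 CPM in singing libraries 1 to 4 and 164, 402 and 172 CPM in silent libraries 1 to 3. On the scale common to both nuclei RA singing library 1 had 165 CPM and RA silent libraries 1 and 3 had 135 and 162 CPM there, while the Area X libraries ran from 388 to 1044 CPM. At chr5:30136683-30167613 the sums were 86.8, 262, 130 and 344 CPM in singing libraries and 69.9, 346 and 67.2 CPM in silent libraries. Silent library 2 was above 3 of the 4 singing libraries in the first run and above all 4 in the second.

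Toward silent, the strongest of the 3 runs in that fit was chr12:13909517-13921981, with 478, 303, 352 and 142 CPM in singing libraries 1 to 4 and 503, 245 and 583 CPM in silent libraries 1 to 3. There singing library 4 and silent library 2 were the lowest of their groups. On the common scale its RA libraries ran from 135 to 548 CPM, above the 48.3 to 102 CPM of the Area X libraries.

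The quality weights that limma voom fitted to the 7 libraries were 0.461, 1.36, 0.917 and 2.73 for singing libraries 1 to 4 and 1.01, 0.434 and 1.45 for silent libraries 1 to 3. The shallowest library had the highest weight, and the lowest weights fell on silent library 2 and singing library 1, whose leave-outs moved the counts of leans most. With these weights 2176 regions leaned higher and 992 lower, with 0 called (smallest limma adjusted p = 0.312).

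The number of regions in which the behaviours did not overlap also moved with single libraries. With all 7 libraries, 180 regions (0.512% of those tested) had every singing library above and 506 (1.44%) every singing library below the silent ones. Without silent library 2 these were 2057 (5.85%) and 2228 (6.34%). Without singing library 1 they were 998 (2.84%) and 3167 (9.01%). Fewer libraries overlap less by construction.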
